A study of Mus musculus with 20 samples.

Results

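The transcription factors that set effector and memory fate in CD8+ T cells were described in T cells recovered from 4 sites of mice with acute graft-versus-host disease. They were Tbx21, Eomes, Runx3, Zeb2, Prdm1, Bcl6, Irf4, Id2, Id3 and Tcf7, a set chosen by name. Each gene was read from its brightest probe, the probe being assigned by its RefSeq accession. All 10 had a probe, among 20886 genes with a probe on the array, and 8 of them were among the 8057 genes with enough signal to be tested. Levels are log2 signals over the 75th percentile of the same array, so a level of 0 is that percentile itself. Signals of different probes cannot be set against each other, so each gene was compared with itself across sites, and of ratios between genes only the change between sites was read.

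The recipients were female C57Bl/6 m-act OVA mice, 8 to 16 weeks old, which carry a CAG-OVA transgene. The broadly active CAG promoter makes ovalbumin a self protein in many tissues. They received 11 Gy of total body irradiation, then marrow cells and splenocytes. The grafted CD8+ T cells came from CD45.1 OT-I mice, whose transgenic T cell receptor recognises an ovalbumin peptide, so the T cells share a single specificity. All other graft cells and the recipients carried CD45.2. On day 4 the CD45.1+ cells were selected magnetically from liver, lung, small intestine and peripheral blood, with 5 arrays per site and 20 in all. All of these cells had been exposed to the same transplant, and none of the 20 arrays holds T cells before transfer. The labels do not say which animal an array came from, and the tests therefore rest on the spread between samples, which may be technical.

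In an activated CD8+ T cell, a naive, self-renewing programme built on TCF-1 (Tcf7) gives way to an effector programme built on T-bet (Tbx21), Blimp-1 (Prdm1), Id2 and Zeb2. Several of the factors work as opposing pairs. Blimp-1 and Bcl6 repress each other, and Id2 and Id3 both bind E proteins but are linked to effector and to memory cells respectively. IRF4 is induced through the T cell receptor and sustains the expansion of effector cells, and RUNX3 holds the CD8 lineage and the cytotoxic programme in place.

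The 75th percentile signal of the arrays ran from 823 to 2845 intensity units, and 22.6 to 38.7% of probes were well above background. The cells carried the markers of their label: of 17 CD8 T cell identity genes 16 were tested, and their mean level was 4.84 to 5.22 in blood, 5.13 to 5.37 in liver and 4.52 to 5.14 in lung. In small intestine it was 4.45, 3.79, 5.54, 3.55 and 5.29 on arrays 1 to 5. A pair of arrays went against their labels in the markers of Paneth cells, the defensin-secreting cells of the intestinal crypt. The mean of the 4 tested Paneth cell markers was 4.61 on liver 5, against -1.98 to -1.38 on the other liver arrays. It was -2.76 on small intestine 5, against 2.59 to 7.27 on the other small intestine arrays. Several differences between sites are given with and without these 2 arrays, a choice made after the data were seen. Where no value without them is given, as for the averages of ratios, both arrays are included.

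Irf4 was lower in the small intestine than in blood, and it was the single factor of the 8 tested that passed the threshold in any comparison of sites. Its levels in blood were 2.06, 2.30, 2.03, -0.20 and 3.38 on arrays 1 to 5. In small intestine they were -0.10, -1.48, -0.89, -1.68 and 2.18, and the probe was well above background on arrays 1 and 5 of these only. Small intestine 1 to 4 thus lay below blood 1, 2, 3 and 5, whereas blood 4 lay among the small intestine values and small intestine 5 among the blood values.

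Liver held Irf4 at 1.85, 2.29, 2.60, 1.18 and 0.84, and lung at 1.92, 2.02, 2.27, 0.31 and 0.98. These 10 arrays were all well above background and lay within the range of blood. The order of the site means was blood, 1.91 ± 1.30 (SD, n = 5), liver, 1.75 ± 0.74, lung, 1.50 ± 0.83, and small intestine, -0.40 ± 1.56. Blood, liver and lung, the neighbours at the top, differed by less than their spread.

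The difference between small intestine and blood was -2.31 ± 0.67 (SE) on the log2 scale, with a 95% interval of -3.71 to -0.91, and the limma adjusted p was 0.0367. The probe being at background on small intestine 2, 3 and 4, the size of this difference depends on the background correction, and no fold is given. Over all genes tested the median of this comparison was -0.36, 10.8% of genes passed in either direction and 9.92% passed as lower, while 0.918% passed as higher. A count of 1 of 8 factors is near that background and says nothing particular about these genes. In bulk samples such as these, fewer cells expressing a gene and less RNA per cell cannot be told apart.

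**Figure D1:**
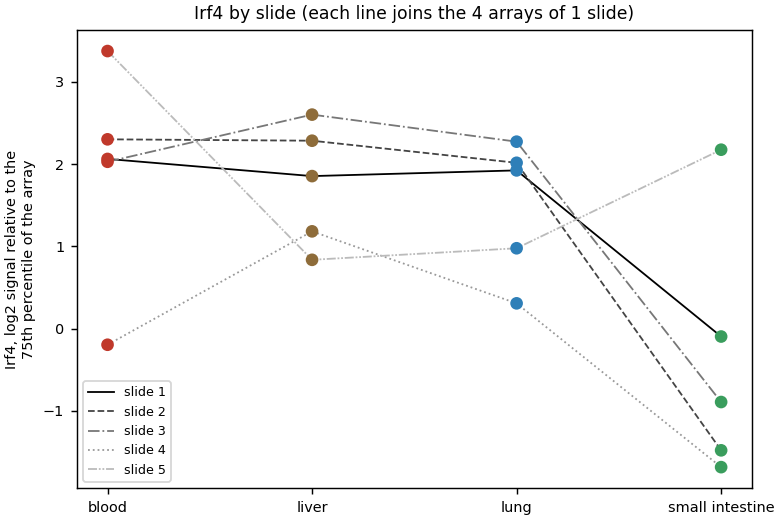
Irf4 level on each array, on the log2 scale over the array's 75th percentile, by site. Each line joins the 4 arrays of 1 slide, and the small intestine point lies below the blood point on 5 of 5 slides, with differences from -3.78 to -1.20. Slide 5 holds liver 5 and small intestine 5, the arrays that went against their labels in Paneth cell markers.

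Each slide carried 1 array of every site, so the comparison could be made within slides, as the lines by slide show. Small intestine minus blood was -2.16, -3.78, -2.92, -1.49 and -1.20 on slides 1 to 5. All 5 slides thus had less Irf4 signal in the small intestine, including slide 5, where small intestine 5 was set against the highest blood value. Small intestine 5 is the array that went against its label in Paneth cell markers, and its Irf4 lay within the blood range. Against liver and lung, small intestine was lower on 4 of 5 slides, slide 5 being the exception in both.

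Neither of those comparisons passed the threshold with all arrays. Small intestine minus liver was -2.15 ± 0.67 (limma adjusted p = 0.135, with 0 of the genes tested called, 0%), and small intestine minus lung was -1.90 ± 0.67 (limma adjusted p = 0.330, with 0.149% called). The limma F-test over the 4 sites gave Irf4 an adjusted p of 0.0964, where 0.757% of genes were called.

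Leaving out liver 5 and small intestine 5 set Irf4 in the small intestine below each of the other 3 sites. The difference was then -2.95 ± 0.57 from blood (limma adjusted p = 0.00234), -3.02 ± 0.60 from liver (limma adjusted p = 0.00439) and -2.54 ± 0.57 from lung (limma adjusted p = 0.0223). Of the 4 small intestine arrays then left, the probe was well above background on array 1 alone, so the sizes rest on background values. The background rose as well, to 26.3%, 16.3% and 2.63% of all genes tested, with 21.6%, 14.6% and 1.92% of all genes called lower. With arrays scaled on common probes as well, the call against lung was lost, at -2.33 (limma adjusted p = 0.0701).

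The call against blood was lost when any of blood 1, 2, 3 or 5 or small intestine 1, 2 or 4 was left out singly. It was also lost with scaling on common probes (-2.27, limma adjusted p = 0.089), with normexp background correction (-1.32, limma adjusted p = 0.0716), with no filter on signal (limma adjusted p = 0.0677) and with the 10 arrays alone (limma adjusted p = 0.0911). In every setting tried that tested Irf4 the difference from blood was below 0, and the adjusted p ran from 0.00234 to 0.108.

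The region upstream of Irf4 is shown because IRF4 is a textbook target of antigen receptor signalling through NF-κB. The 250 bases before its RefSeq start lie at chr13:30748983-30749232 on the + strand of GRCm38.p6 and are printed 5′ to 3′, with a match to the κB motif GGGANNNNCC in capitals.
Irf4: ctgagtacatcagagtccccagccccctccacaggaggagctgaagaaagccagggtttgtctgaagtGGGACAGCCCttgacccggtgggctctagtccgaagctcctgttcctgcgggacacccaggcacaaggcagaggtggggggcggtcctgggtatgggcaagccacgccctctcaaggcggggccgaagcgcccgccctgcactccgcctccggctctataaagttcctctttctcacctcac
The window was 63.6% G and C, and the match began at position -182 from the start. Of the 10 factors Irf4 alone had this match, which 17.6% of 32851 RefSeq windows of the same length hold, both strands being searched. The AP-1 motif TGANTCA, held by 6.7% of windows, was found upstream of Prdm1 and Zeb2, and the NFAT motif TGGAAA, held by 18.6%, upstream of Bcl6 and Zeb2. The Runt motif TGTGGT, found in 14.0% of windows, occurred upstream of Runx3 itself. The interferon response motif GAAANNGAAA, found in 3.0%, occurred upstream of Eomes, and the T-box motif AGGTGTGA, found in 1.1%, upstream of none of the 10. No other of these motifs lay in the Irf4 window, so none overlapped the κB match. The matches are letters in a window and carry no measurement of binding.

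**Figure D2:**
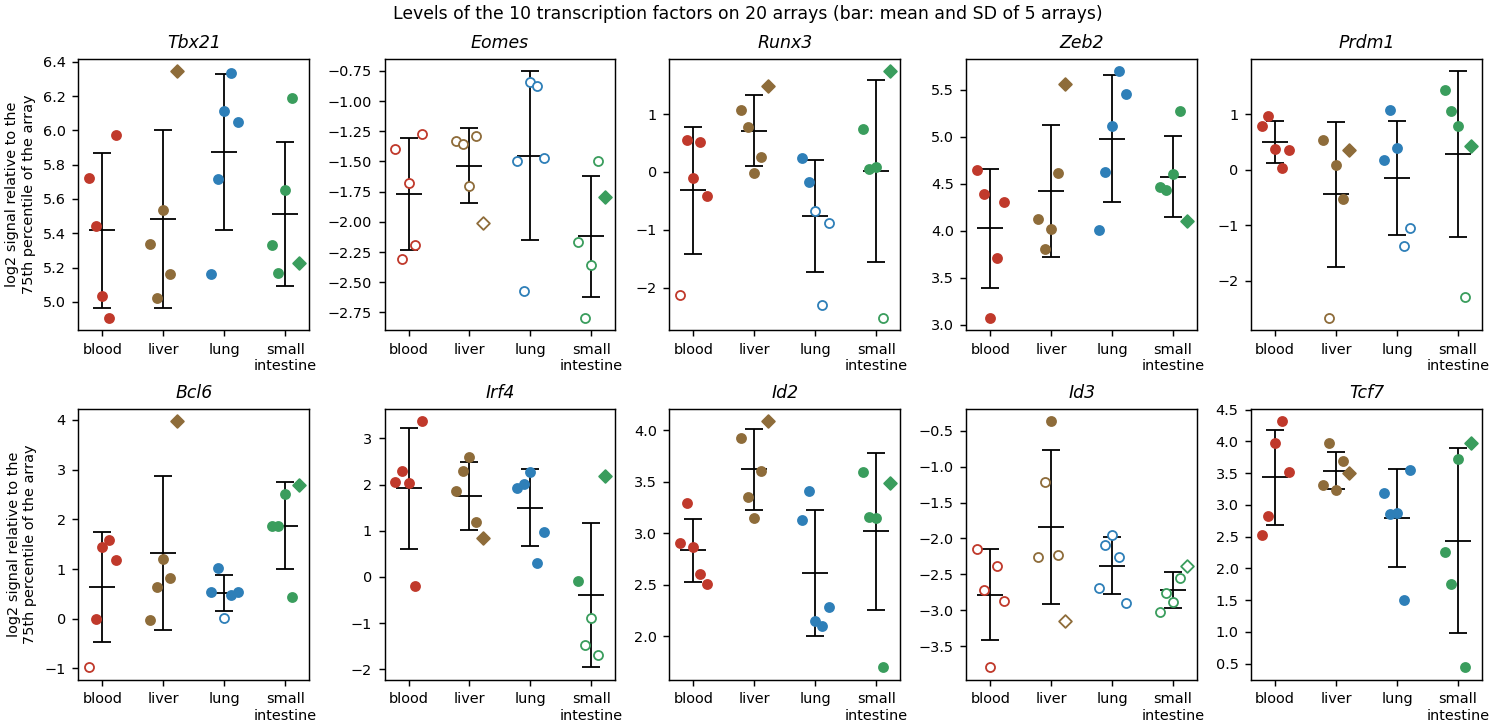
Levels of the 10 factors on the log2 scale over the array's 75th percentile, by site, with the mean and SD of 5 arrays as bars. Open symbols are arrays where the probe was not well above background and diamonds are liver 5 and small intestine 5, and Irf4 is open on 3 of 5 small intestine arrays while Eomes and Id3 are open on 19 of 20.

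Tbx21 encodes T-bet, the T-box factor that drives effector differentiation and interferon gamma. It was well above background on all 20 arrays and held the narrowest range of any of the 10, from 4.91 to 6.34. Site means were 5.42 ± 0.45 for blood and 5.48 ± 0.52 for liver, with lung at 5.87 ± 0.46 and small intestine at 5.51 ± 0.42. No site was set apart, and its SD over the 20 arrays exceeded that of only 26.0% of the genes tested. Small intestine minus blood was 0.10, with a 95% interval of -0.53 to 0.72, and lung minus blood was 0.46, with an interval of -0.17 to 1.09.

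Eomes, the sister T-box factor linked to memory and to later effector stages, was barely detected. Its brightest probe was well above background on 1 of 20 arrays, small intestine 5, and levels ran from -2.79 to -0.85. A second probe was dimmer, and was also above background on 1 array. Eomes was therefore not tested, no fold is given, and the planned ratio of Tbx21 to Eomes could not be read.

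Runx3, which keeps the CD8 lineage and the cytotoxic programme in place, was well above background on 15 of 20 arrays. Levels in liver were 1.07, 0.78, -0.02, 0.26 and 1.49, and in lung 0.24, -0.18, -0.67, -2.30 and -0.88. Lung was below liver on 5 of 5 slides, although the ranges of the sites overlapped, and the probe was well above background on 2 of 5 lung arrays and on 5 of 5 liver arrays. Lung minus liver was -1.47 ± 0.65 (limma adjusted p = 0.309), where 0.285% of genes were called. Blood, at -0.32 ± 1.1, and small intestine, at 0.02 ± 1.58, lay between them, with blood 1 and small intestine 4 at -2.13 and -2.52. A second Runx3 probe was above background on 1 array.

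Zeb2, a zinc finger repressor that acts with T-bet in terminal effector cells, was above background on all 20 arrays. Its levels were 4.64, 4.39, 3.07, 3.71 and 4.31 in blood and 4.01, 4.63, 5.11, 5.69 and 5.46 in lung. Lung was higher on 4 of 5 slides, and 3 of 5 lung arrays exceeded every blood array. Lung minus blood was 0.96 ± 0.38 with a 95% interval of 0.17 to 1.75, and the limma adjusted p of 0.124 missed the threshold, in a comparison where 0.819% of genes passed. Without lung 1 the difference was 1.20 (limma adjusted p = 0.0494). The order of site means was lung, 4.98, small intestine, 4.58, liver, 4.42, and blood, 4.02, and neighbours in it differed by less than the SDs of 0.43 to 0.70. A second, dimmer Zeb2 probe was above background on 2 arrays. It was highest on small intestine 1 and 2, at -0.22 and 0.065, and ran from -4.25 to -2.17 on the others.

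Macrophages also express Zeb2, and summed markers of macrophages were above the blood range on every lung array except lung 3. The summed level of the 11 alveolar macrophage markers with a probe ran from 3.00 to 9.66 in lung and from 3.10 to 3.45 in blood, where 6 of the 11 (Ear1, Ear2, Krt79, Mrc1, Plet1 and Pparg) were not well above background on any array. The 14 monocyte and macrophage markers with a probe summed to 4.40 to 8.24 in lung and 4.36 to 5.58 in blood, and 12 of the 14 were not above background in blood. On lung 1 to 5 the alveolar macrophage markers summed to 7.66, 7.43, 3.00, 9.66 and 9.01. Zeb2 on the same arrays was 4.01, 4.63, 5.11, 5.69 and 5.46. The part of macrophages or of other cells in the Zeb2 values was not tested.

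Prdm1 encodes Blimp-1, a transcriptional repressor that promotes terminal effector differentiation and tissue residency. It was well above background on 16 of 20 arrays. Blood was tight, at 0.79, 0.97, 0.37, 0.03 and 0.36. Liver was at 0.54, -2.67, 0.09, -0.54 and 0.35, and was below blood on 5 of 5 slides, with differences from -3.64 to -0.01. The liver mean was set by liver 2, where the probe was not above background, and liver minus blood was -0.95, with a 95% interval of -2.32 to 0.42. Lung averaged -0.15 ± 1.03 and small intestine 0.28 ± 1.49, both overlapping blood.

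Bcl6, the repressor that opposes Blimp-1 and is linked to memory precursors and follicular T cells, had its highest mean in the small intestine. Its levels there were 1.86, 1.87, 2.50, 0.44 and 2.70, against -0.98, -0.01, 1.44, 1.58 and 1.19 in blood. Lung stayed between 0.02 and 1.03. In the small intestine 4 of 5 arrays exceeded all blood and lung arrays, and small intestine 4 fell among them.

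Small intestine minus blood was 1.23 ± 0.62, with a 95% interval of -0.06 to 2.52 (limma adjusted p = 0.169), and small intestine minus lung 1.36 ± 0.62, with an interval of 0.07 to 2.65 (limma adjusted p = 0.559). Neither passed. In liver, Bcl6 was 3.98 on liver 5, the array with Paneth cell markers, and -0.02 to 1.20 on the other 4. Liver minus blood was 0.68 with liver 5 and 0.02 without the 2 arrays that went against their labels. Without them, small intestine minus blood was 1.03 ± 0.48 (limma adjusted p = 0.104).

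Id2, an inhibitor of E proteins that favours effector cells, was above background on all 20 arrays. Liver held it at 3.92, 3.35, 3.14, 3.60 and 4.09 and blood at 2.90, 3.29, 2.87, 2.60 and 2.51. Liver was higher than blood on 5 of 5 slides, by 0.06 to 1.58, with the ranges of the sites overlapping between 3.14 and 3.29. Liver minus blood was 0.79 ± 0.34 with a 95% interval of 0.07 to 1.50. The limma adjusted p was 0.997, in a comparison where 0% of genes passed after adjustment and 2.79% had an unadjusted p under 0.05. Without liver 5 and small intestine 5 the difference was 0.67 ± 0.36, with a 95% interval of -0.09 to 1.43.

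Lung held Id2 at 3.13, 3.41, 2.15, 2.10 and 2.29, and lung minus liver was -1.01 ± 0.34 (limma adjusted p = 0.250). The order of site means was liver, 3.62, small intestine, 3.02, blood, 2.84, and lung, 2.61. Small intestine, blood and lung differed from their neighbours by less than their SDs of 0.31 to 0.77.

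Id3, the E protein inhibitor linked to memory cells, was well above background on 1 of 20 arrays. That array was liver 3, at -0.37, and the others ran from -3.79 to -1.21. It was not tested, and the planned ratio of Id2 to Id3 could not be read.

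Tcf7 encodes TCF-1, which marks naive cells and memory precursors. It was above background on all 20 arrays, at 2.53, 2.83, 3.97, 4.32 and 3.51 in blood and 3.31, 3.97, 3.23, 3.69 and 3.51 in liver. In small intestine it was 2.26, 1.76, 3.73, 0.44 and 3.98. Arrays 1, 2 and 4 were lower than every blood array, and arrays 3 and 5 lay within the blood range. Small intestine minus blood was -1.0 ± 0.54 (limma adjusted p = 0.197), and without liver 5 and small intestine 5 it was -1.39 ± 0.54 (limma adjusted p = 0.0605). Lung averaged 2.80 ± 0.78, with lung 4 at 1.50 and the others from 2.86 to 3.55. A second Tcf7 probe was above background on no array.

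**Figure D3:**
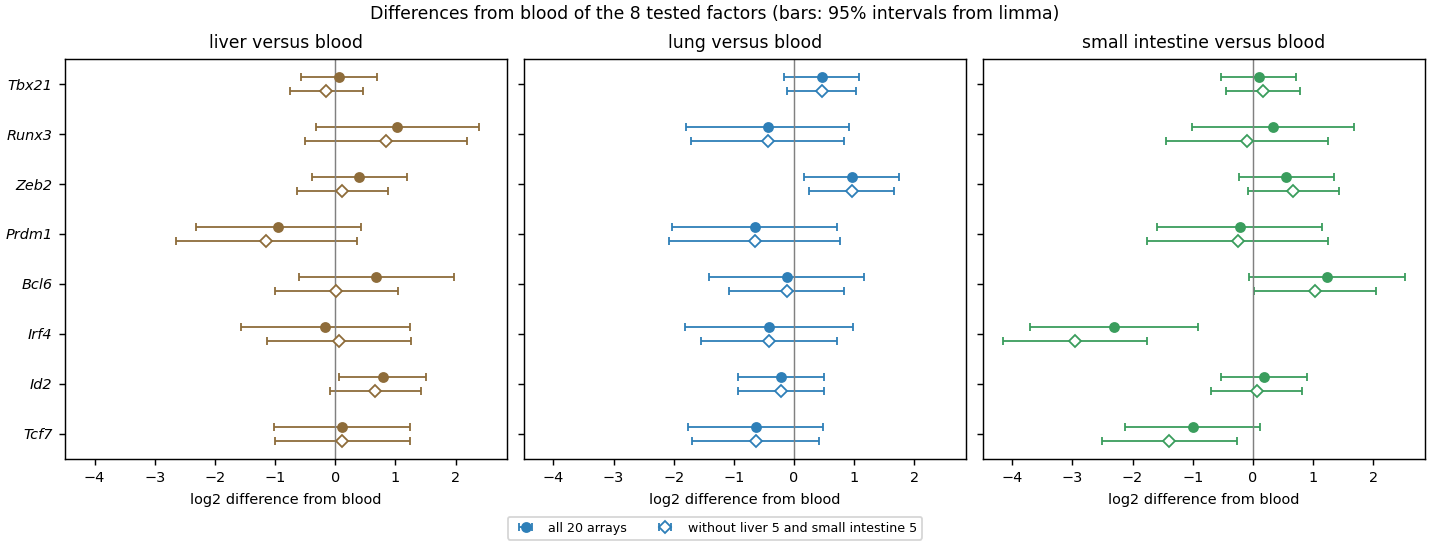
Log2 difference from blood of the 8 tested factors, in liver, lung and small intestine. Circles use all 20 arrays, open diamonds leave out liver 5 and small intestine 5, and bars are 95% intervals from limma; Irf4 in small intestine, at -2.31 and -2.95, is the value whose interval lies farthest from 0.

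Seen by comparison, as in the plot of differences from blood, the factors showed no shared direction. The median over the 8 was 0.25 for liver minus blood, -0.32 for lung minus blood and 0.14 for small intestine minus blood, beside 0.05, -0.30 and -0.36 over all genes tested. Between tissues it was -0.50 for lung minus liver, -0.29 for small intestine minus liver and 0.02 for small intestine minus lung, beside -0.25, -0.34 and -0.15. Unadjusted p-values under 0.05 were reached by 1 of 8 factors in liver, lung and small intestine against blood, where 2.79%, 33.8% and 32.8% of all genes did. They were reached by 2 of 8 in lung against liver (14.8%), 1 of 8 in small intestine against liver (22%) and 2 of 8 in small intestine against lung (8.24%). No factor separated any pair of sites without overlap. Over all genes, liver, lung and small intestine separated from blood in 1.03%, 6.93% and 8.3%, lung from liver in 4.65%, and small intestine from liver and lung in 1.27% and 1.08%.

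Comparisons that share the blood arrays are not independent of each other. When arrays were scaled on probes above background everywhere, the all-gene median for lung minus blood moved from -0.30 to -0.48, for liver minus blood from 0.05 to -0.13, for small intestine minus liver from -0.34 to -0.12 and for small intestine minus lung from -0.15 to 0.08.

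The small intestine arrays with little Irf4 and Tcf7 were in part those with less CD8 T cell signal. Small intestine 2 and 4 had the lowest identity means, 3.79 and 3.55, and the highest Paneth cell means, 6.78 and 7.27. Small intestine 3 differed: its identity mean of 5.54 was the highest of all 20 arrays, its Tcf7 was within the blood range, and its Irf4, at -0.89, was not. Summed over the 6 Paneth cell markers with a probe, the level ran from 0.09 to 9.65 in small intestine and from 0.33 to 2.22 in blood, where Defa21, Defa26, Defa29 and Lyz1 were not above background on any array. The 20 intestinal epithelium markers with a probe summed to 1.87 to 8.46 in small intestine and 1.83 to 2.95 in blood, with 16 of the 20 not above background in blood.

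Plasma cells and macrophages express Irf4 and Prdm1 too. The 7 plasma cell markers with a probe summed to 4.43 to 6.66 in small intestine and 4.19 to 4.80 in blood, where Fkbp11, Jchain, Mzb1 and Tnfrsf17 were not above background. The 14 monocyte and macrophage markers summed to 5.11 to 8.46 in small intestine. The upper ends of both ranges lay above those of blood. Lyz1 is counted among both the macrophage and the Paneth cell markers, so the sums of these lists are not independent. The part of other cells in the small intestine values was not tested.

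**Figure D4:**
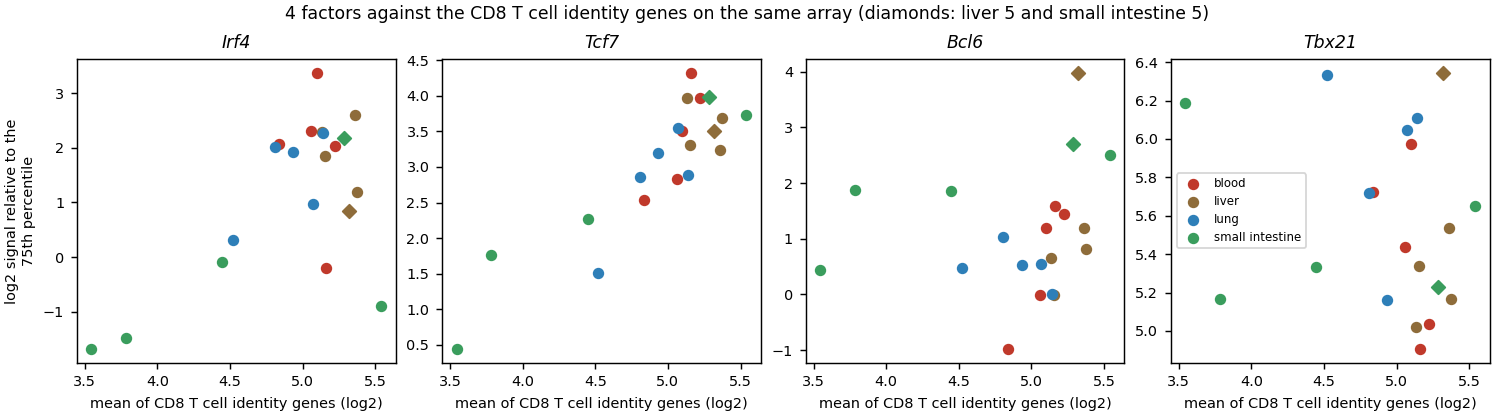
Irf4, Tcf7, Bcl6 and Tbx21 against the mean of the 16 tested CD8 T cell identity genes on the same array, both as log2 signal relative to the 75th percentile, with diamonds for liver 5 and small intestine 5. The small intestine arrays at 3.55, 3.79 and 4.45 on the horizontal axis have Tcf7 from 0.44 to 2.26 and Irf4 from -1.68 to -0.10, while small intestine 3, at 5.54, has Irf4 at -0.89.

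Ratios within an array do not depend on how it is scaled, and those taken against the identity mean, along with Irf4 over Tbx21, were chosen after the values were seen and carry no test. Relative to the identity mean, Irf4 was -3.16 ± 1.34 in blood and -4.92 ± 1.22 in small intestine, lower on 4 of 5 slides and higher by 0.13 on slide 4, where blood 4 was at -5.35. Relative to Tbx21 it was -3.50 ± 0.97 in blood and -5.91 ± 1.82 in small intestine, and lower on 5 of 5 slides, with differences from -3.54 to -0.45. The Irf4 difference was thus -1.75 against the identity genes and -2.41 against Tbx21, beside -2.31 as scaled to the array.

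Tcf7 relative to the identity mean was -1.64 ± 0.63 in blood and -2.09 ± 0.66 in small intestine. On this scale small intestine was higher on 3 of 5 slides and lower on the other two, and as scaled to the array it was higher on 1 and lower on 4.

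Bcl6, in contrast, separated the small intestine from blood and lung on this scale, but not from liver. Relative to the identity mean it was -5.81, -5.07, -3.78, -3.58 and -3.91 in blood, -4.40, -3.78, -5.12, -4.04 and -4.53 in lung, and -2.58, -1.91, -3.04, -3.10 and -2.59 in small intestine. Every small intestine array then lay above every blood and every lung array, on 5 of 5 slides for both, the probe being at background on blood 1 and lung 3. The scale subtracts the identity mean, which on small intestine 1, 2 and 4, at 4.45, 3.79 and 3.55, was below every blood and lung array. As scaled to the array, Bcl6 on small intestine 4 was 0.44, among the blood and lung values. Of all genes tested, 1.09% separated small intestine from blood upwards on this scale and 1.81% separated it from lung. Relative to the identity mean, Bcl6 in liver was -3.94 ± 1.50, with liver 5 at -1.34, above every small intestine array.

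The Prdm1 to Bcl6 ratio averaged -0.14 ± 1.43 for blood and -1.77 ± 1.72 for liver, with lung at -0.67 ± 0.997 and small intestine at -1.59 ± 0.97. Small intestine was below blood on 5 of 5 slides, with differences from -2.19 to -0.64, and below lung on 5 of 5 slides, with differences from -2.09 to -0.08, although the ranges of the sites overlapped. These ratios rest in part on background values. Prdm1 was not well above background on liver 2, small intestine 4 and lung 4 and 5, nor Bcl6 on blood 1 and lung 3. The ratio was -3.32 on liver 2 and -3.63 on liver 5, an array that went against its label. On liver 1, 3 and 4 it was 0.55, -1.11 and -1.36. The Zeb2 to Tcf7 ratio averaged 0.59 ± 1.32 for blood and 0.88 ± 0.79 for liver, then 2.18 ± 1.24 for lung and 2.14 ± 1.82 for small intestine. Both lung and small intestine exceeded blood on 4 of 5 slides, with overlapping ranges. The highest values were 4.19 on lung 4 and 4.83 on small intestine 4. These arrays had the lowest CD8 T cell identity means of their sites, 4.52 and 3.55. The part of other cells in this ratio was not tested.

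By the root mean square difference of centred levels over the 20 arrays, the tested genes whose pattern was most like that of Irf4 were Bard1, at 0.62, Ppat, at 0.67, and Il18r1, at 0.72. The median over the 8055 genes compared was 1.36, and Irf4 itself varied by 1.39 about its mean. Bard1 encodes the partner of BRCA1, Ppat the first enzyme of purine synthesis and Il18r1 a chain of the interleukin 18 receptor. In small intestine against blood they differed by -1.84 ± 0.60, -1.71 ± 0.66 and -2.22 ± 0.64, and Il18r1 alone of these passed (limma adjusted p = 0.0350). In small intestine Bard1 and Ppat were well above background on 2 of 5 arrays.

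Other genes of these pathways were read from lists. Of 38 related fate transcription factors 27 were tested, and in small intestine against blood 3 were lower and 0 higher, with a median of -0.18 beside -0.36 over all genes. That count is near the 9.92% of all genes called lower. They were Zbtb32, a BTB zinc finger repressor, at -1.76 ± 0.39 (limma adjusted p = 0.0170), Ikzf1, which encodes Ikaros, at -1.93 ± 0.47 (limma adjusted p = 0.0207), and Nfatc2, a calcium-activated factor downstream of the T cell receptor, at -2.58 ± 0.67 (limma adjusted p = 0.0248). Nfatc2 was well above background on 1 of 5 small intestine arrays, so its difference is measured against background. Without liver 5 and small intestine 5, 5 were lower and 0 higher, where 21.6% of all genes were lower.

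Of 22 dimer partners and cofactors of the 10 factors 16 were tested, and 4 were lower and 0 higher, with a median of -0.65 beside -0.36 over all genes, of which 9.92% were lower. Cbfb, the partner of Runx proteins, was at -0.87 ± 0.28 (limma adjusted p = 0.0478). Prmt5, an arginine methyltransferase, was at -1.16 ± 0.28, Ctbp1, a corepressor, at -0.67 ± 0.20, and Hdac1, a histone deacetylase, at -0.86 ± 0.27. Without the 2 arrays 5 were lower, where 21.6% of all genes were.

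Of 27 effector-linked genes 19 were tested and 2 were lower, near the 9.92% of all genes called lower, with a median of -0.46 beside -0.36. They were Il18r1 and Prf1, which encodes perforin, at -2.05 ± 0.56 (limma adjusted p = 0.0295). In small intestine Prf1 was well above background on 1 of 5 arrays and Il18r1 on 3 of 5, against 5 of 5 in blood for both. Without the 2 arrays 5 were lower and 1 higher, where 21.6% of all genes were lower.

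Of 22 memory- and naive-linked genes 18 were tested. S1pr1, the receptor for egress into blood, was lower in small intestine, where it was well above background on 3 of 5 arrays, than in blood, at -2.68 ± 0.71 (limma adjusted p = 0.0269), while Ccr7, the lymph node homing receptor, was higher, at 1.84 ± 0.53 (limma adjusted p = 0.0351). Without liver 5 and small intestine 5 both still passed (limma adjusted p = 0.00727 and 0.0113). In the other 5 comparisons no gene of the 4 lists passed with all arrays, where 0 to 0.819% of all genes did.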

How the data were processed

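Total RNA of CD45.1+ T cells went through 2 rounds of amplification and was measured by Cy3 fluorescence on 1-colour Agilent arrays, per the labels' protocols. Processed signal intensity, background-subtracted on a linear scale, was written, per the file headers, by Feature Extraction 11.0.1.1. Version 10.7 and Partek are named in the submitters' processing notes. A further table of the authors holds log2 values. Its column medians are 8.05 and it matches quantile-normalized log2 signal with a median absolute difference of 0.000107. It was used as an alternative.

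From each array, log2 processed signal minus that of the 75th percentile was taken, without its 1377 control spots. Non-uniform spots, 24 in all over the 20 arrays, were left out too. Spots of a probe were averaged. Accessions named 27508 of 39429 probes through a RefSeq table of GRCm38.p6, and 11921 were left unnamed. The brightest probe stood for each gene. Genes entered the test if 4 or more of the 5 arrays of any site showed them well above background. limma 3.58.1 in R 4.3.3 fitted 1 coefficient per site over 20 arrays, and p-values were adjusted by Benjamini-Hochberg over 8057 genes within each of 6 comparisons, at 0.05. The fit was tested on simulated data. Precision is limited by the 5 arrays per site.

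The 10 genes, the gene lists and the tests were chosen with earlier results of these data known. All 10 were named, with up to 4 list genes per comparison that passed, by smallest adjusted p, and the 3 genes nearest in pattern to a called factor. A gene of the memory- and naive-linked list is not reported here, nor are that list's counts of calls. The alternatives were scaling on common probes, median and quantile scaling, normexp, other filters, only the arrays compared, the slide as a block and leaving out each array. The normexp alternative used median spot signals, with an offset of 50. Slides, 5 in all, carried the same replicate number on 4 arrays, 1 per site. Deviations from the site mean in 30 same-number pairs of arrays had correlations from -0.37 to 0.56, and 18 were over 0.1. These values do not settle whether the numbers pair samples, and arrays of a slide may share variation. As the labels name no pairs, the main fit left the slide out, and the slide as a block was an alternative.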

Additional observations from a re-analysis of the deposited data

Results flagged for a closer look

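Among 32 groups of 5 arrays, 2 held an array far from the other 4, and about 1 in 20 groups does so by chance. Prdm1 was -2.30 on small intestine 4, and the nearest other small intestine array was at 0.43. Id2 was 1.70 on small intestine 4, with the nearest at 3.15. Both values came from the array with the lowest CD8 T cell identity mean, 3.55.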

How the results depend on the processing

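Of the 8 factors, 1 was called in small intestine against blood, and 0 were called there with scaling on common probes, with normexp, with no filter, with a filter for probes above background on all 20 arrays, which removes Irf4, and with the 10 arrays compared alone. Leaving out 1 array at a time gave 0 to 1 there, 0 to 1 in lung against blood, in small intestine against liver and against lung and in the F-test over sites, and 0 in the remaining 2 comparisons. Irf4 in small intestine against blood was -2.27 on common probes (limma adjusted p = 0.089), -1.32 with normexp (limma adjusted p = 0.0716), and unchanged in value with no filter (limma adjusted p = 0.0677). Without small intestine 5, Irf4 was also called against liver (-2.79, limma adjusted p = 0.0106) and lung (-2.54, limma adjusted p = 0.0341). Without liver 5 and small intestine 5, 1 factor was called in small intestine against liver, 1 against lung and 1 in the F-test. With common-probe scaling as well, 1 was called against liver and 1 in the F-test, and 0 against lung. With the replicate block, which is the slide, Irf4 was -2.31 (limma adjusted p = 0.0243) and no call changed. Of 1522 factor values under alternatives that were not called, 52 changed sign. Over all genes, calls in small intestine against blood went from 873 to 0 to 2037 when 1 array was left out and 19 to 2119 otherwise, in lung against blood from 66 to 16 to 846 and 0 to 531, in lung against liver from 23 to 10 to 65 and 0 to 32, in small intestine against lung from 12 to 3 to 118 and 0 to 212, in small intestine against liver from 0 to at most 822 and 1312, and in liver against blood from 0 to at most 2 and 3. The F-test went from 61 to 13 to 1065 and 2 to 1513. The F-test was not run for the arrays of a single comparison. The cause of these changes was not tested. Signal over background limited Eomes and Id3 to 1 array each and Irf4 to 2 of 5 in small intestine.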
